A study of Mus musculus with 3 samples.

Results

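Replication-dependent histone genes encode the H1, H2A, H2B, H3 and H4 proteins that package newly made DNA. Members were the mouse genes whose current symbol begins with H2ac, H2bc, H3c, H4c or H1f1 to H1f6, or whose older symbol begins with Hist1h to Hist4h. There were 67 such genes among 23398 measured, namely 6 of type H1, 18 H2A, 18 H2B, 12 H3 and 13 H4. Of the 67, 63 reached 1 FPKM (fragments per kb of transcript and per 1M fragments) in at least 1 library and are called expressed here. The other 4 were H1f6, H2ac1, H2ac19 and H4f16. By position in mm9, 54 members lay on chromosome 13, 10 on chromosome 3, 2 on chromosome 11 and 1 on chromosome 6.

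The study sequenced total RNA of endothelial cells made from mouse embryonic stem (ES) cells. The library labelled Gata12KO, written Gata12KO in lists and comparisons, is labelled as Gata1&2KO, SclKO as cells without Scl (Tal1), a transcription factor needed for blood formation, and WT as wild-type cells. In all 3 the ES cells formed embryoid bodies for 4.75 days, and cells that stained for Tie2 and CD31 but not for CD41 were sorted. There was 1 library per group, so no spread between replicates is known and no test was made. The intervals below cover counting error only, with an exception for H2A that is given there. How many ES cell clones stand behind each library is not stated in the labels.

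Replication-dependent histone genes lie in dense clusters and are transcribed mainly in S phase, when cyclin E and CDK2 act through NPAT. Their mRNAs have no poly(A) tail. They end just after a short stem-loop, which is bound by SLBP, cut by a complex that holds the U7 snRNP and needed for both translation and decay at the end of S phase. Because they have no poly(A) tail, libraries made from total RNA record them while poly(A) selection largely loses them.

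The stem-loop is shown for 9 members, since it is what sets these mRNAs apart. It was searched in GENCODE vM21 transcripts as the 16-nt form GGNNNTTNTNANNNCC, with the NNN on one side pairing with those on the other, and was found in 46 of 67 members. Some of the others, such as H2bc13, H2bc15 and H2bc18 (381 nt each), have transcripts no longer than a coding sequence. Their 3′ ends could not be searched, so they are not shown to lack it. The stem-loop lay within the last 150 nt of 27 of 141767 mouse transcripts, of which 24 were transcripts of members. In the annotated transcripts of H1f2 and H4c14 it lay 840 and 1257 nt before the end. Capitals mark the stem and its loop of 4 nt, with up to 5 nt on each side, 5′ to 3′.
H1f2: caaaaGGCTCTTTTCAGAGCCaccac
H2ac23: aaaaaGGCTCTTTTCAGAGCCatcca
H2ac11: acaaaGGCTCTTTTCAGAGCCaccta
H2bc3: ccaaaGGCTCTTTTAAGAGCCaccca
H2bc11: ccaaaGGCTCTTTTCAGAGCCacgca
H3c3: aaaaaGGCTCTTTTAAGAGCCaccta
H3c8: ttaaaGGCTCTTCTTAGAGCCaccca
H4c14: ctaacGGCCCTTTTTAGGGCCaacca
H4c1: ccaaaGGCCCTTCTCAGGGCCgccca
Members of types H1, H2A, H2B and H3 share a stem that begins GGCTCT, and H4 members have GGCCCT or GGTCCT. Of the 46 stem-loops, 26 had the form of H1f2 above. Among them H2bc11, the gene with the lowest ratio in Gata12KO against WT, had the same 16 letters as H2ac23, which was higher in SclKO than in WT. The search form holds the loop to TNTN, so only the N letters of the loop could vary. It was TTTC in most of the 46, TTTA in 6 and had other letters in H2ac20, H3c8, H4c1, H4c9 and H4c14.

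Depth and identity of the libraries set how far each value can be read. The deposited bounds imply 50.3M fragments in the library labelled Gata12KO, 28.3M in SclKO and 31.6M in WT, with 45202 reads on the histone members in Gata12KO, 47633 in SclKO and 39625 in WT. Tal1 had 38.7 FPKM in the library labelled Gata12KO, 1.59 in SclKO and 51.0 in WT. Gata1 had 5.66 FPKM in Gata12KO, a listed 0 in SclKO and 4.64 FPKM in WT. Gata2 had 44.9 FPKM in Gata12KO, 5.81 in SclKO and 12.05 in WT. Both had no lower level in the library labelled Gata12KO than in WT, so the deletions its label names could not be checked. Markers are given as sums of FPKM in Gata12KO, SclKO and WT. The 8 endothelial markers summed to 524, 205 and 442 FPKM, the 8 blood markers to 31.6, 1.24 and 189, the 8 cardiac and mesenchymal markers to 71.1, 238 and 88.3, and the 6 pluripotency markers to 6.16, 9.34 and 9.38. Few genes carry some sums. Hand1 gave 61.7, 209 and 72.2 FPKM of the cardiac and mesenchymal sums, and Hba-x and Hbb-bh1 gave 71.3 and 76.8 of the blood sum in WT. Of 6 expressed cardiac and mesenchymal markers, 5 were above WT in SclKO and 1 below. Of 6 expressed blood markers, 5 were below WT in Gata12KO and 1 above. Ptprc, which marks leukocytes, was at or near 0 in all 3, whereas the endothelial Cdh5 was at 141, 42.9 and 116 FPKM. These marker levels move with the libraries, and their part in the histone ratios was not tested. In such sorted pools, fewer cells of a type in S phase cannot be told apart from less histone RNA per cell.

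In SclKO, RNA of each histone type but H2B was 1.66-fold to 2.44-fold that of WT, while H2B RNA was lower than WT in both SclKO and the library labelled Gata12KO. All types but H2B together summed to 1340 FPKM in the library labelled Gata12KO, 2797 in SclKO and 1273 in WT. The 18 H2B genes summed to 684 FPKM in Gata12KO, 1261 in SclKO and 1789 in WT. H2B made up 33.8% of all histone FPKM in the library labelled Gata12KO and 31.1% in SclKO, against 58.4% in WT. Per FPKM of H2A, there was 1.196 of H2B in Gata12KO, 0.885 in SclKO and 3.04 in WT. The ratio of H3 to H4 varied less, at 0.991 in Gata12KO, 1.03 in SclKO and 0.702 in WT.

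**Figure D1:**
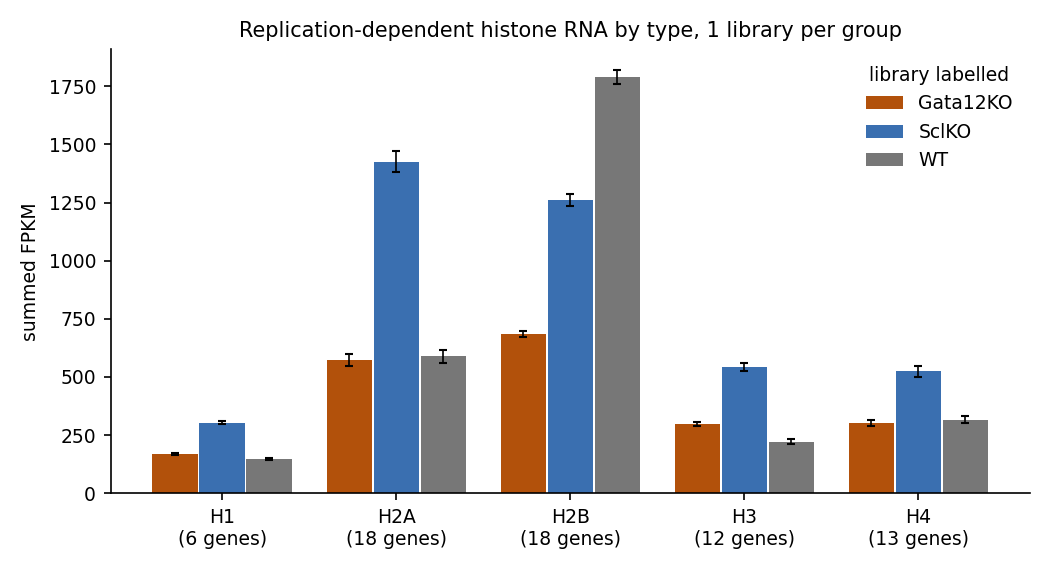
Summed FPKM of the members of each histone type (x axis) in the libraries labelled Gata12KO, SclKO and WT, 1 library each. Bars are sums and error lines their counting error only (2 Poisson SD), except for H2A. Its error lines also take in bounds of H2ac18 and H2ac24 that no read number explains. H2B is tallest in WT at 1789 FPKM, and the other 4 types are tallest in SclKO.

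A gene is called higher or lower where log2 of (FPKM + 1) differs by at least 1 and the deposited bounds, 2 Poisson SD on each side, do not overlap. Ratios followed transcript length. Over 323 expressed genes of 300 to 700 nt that are no members, the median log2 ratio was -0.73 in Gata12KO against WT, -0.33 in SclKO against WT and -0.34 in Gata12KO against SclKO, while over all 11081 expressed genes it was -0.08, -0.04 and -0.06. Histone transcripts had a median of 473 nt against 2795 nt for expressed genes. Each member was therefore also set against the median of non-members of like length, with a transcript at most 25% longer or 20% shorter than its own.

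In SclKO against WT, 18 of 63 expressed histone genes were called higher (28.6%), against 2.12% of all expressed genes and 0.929% of the 323 genes of 300 to 700 nt. A further 5 were called lower (7.94%), against 4.24% and 9.91%. All 18 higher genes were of type H1, H2A, H3 or H4, and all 5 lower genes were H2B. In Gata12KO against WT, 1 member was called higher (1.59%), against 0.767% of all expressed genes and 0.619% of those of 300 to 700 nt. There 8 were called lower (12.7%), against 3.75% and 26.6%, so the share was above that of all genes but below that of short genes. Of these 8, 7 were H2B. This balance turned with the scaling, to 13 higher and 5 lower after rescaling to the library sum (TPM) and 11 higher and 5 lower with the length trend removed. In Gata12KO against SclKO, 1 member was called higher (1.59%), against 3.38% of all expressed genes and 3.72% of short genes, and 17 were called lower (27.0%), against 3.75% of all and 9.29% of short genes. After rescaling to TPM this became 4 higher and 3 lower, and with the length trend removed 3 higher and 6 lower. The 3 comparisons share libraries and are not independent.

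Relative to genes of like length, the median histone gene stood at 0.55 in Gata12KO against WT, 1.02 in SclKO against WT and -0.44 in Gata12KO against SclKO on the log2 scale. With no minimum on FPKM these values were 0.11, 0.52 and -0.62. By type in SclKO against WT, that value was 1.37 for H1, 1.12 for H2A, 1.49 for H3, 1.06 for H4 and -0.08 for H2B. In Gata12KO against WT it was 0.48 for H1, 0.52 for H2A, 1.07 for H3, 0.74 for H4 and -0.39 for H2B. H2B was thus the one type whose median lay below genes of its own length in both comparisons with WT. In SclKO against WT it lay close to them, with 7 of 18 H2B genes above. The other 4 types had medians above genes of their own length in both. These comparisons share the WT library. In Gata12KO against SclKO the median was -0.44 for H1, -0.71 for H2A, -0.49 for H3, 0.06 for H4 and -0.31 for H2B. There H2B did not stand apart.

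**Figure D2:**
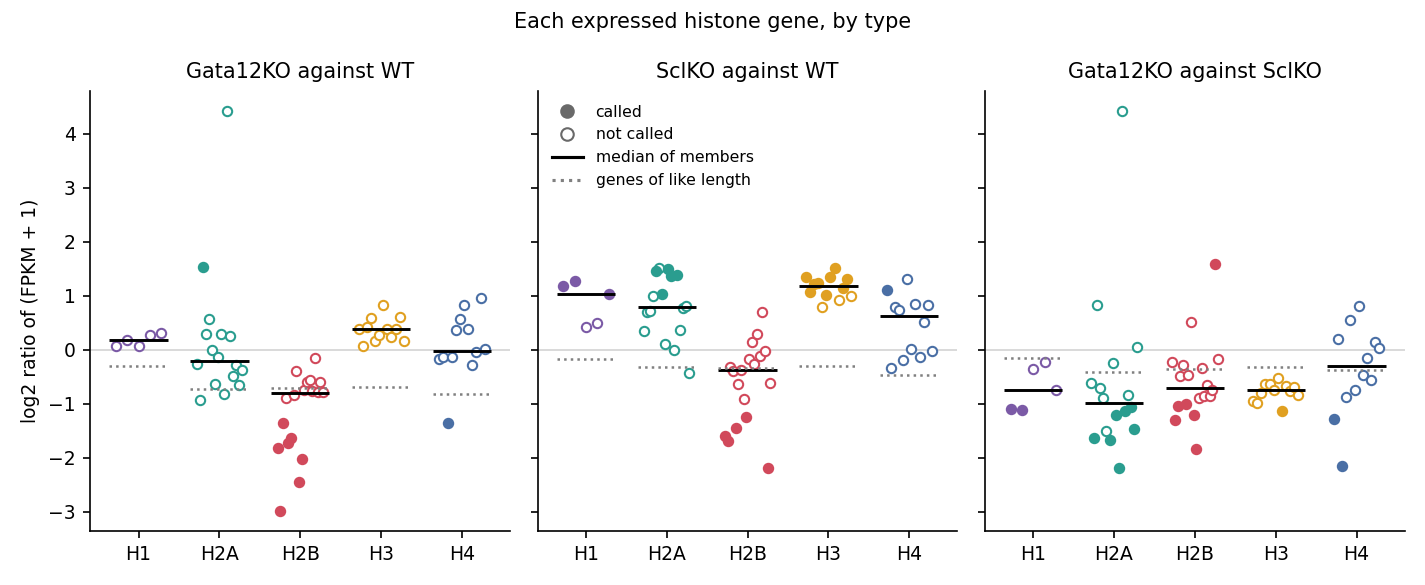
log2 ratio of (FPKM + 1) of each expressed histone gene (points, y axis) by type (x axis) in each of the 3 comparisons. Filled points are genes called higher or lower, black lines the median of a type and dotted lines the median of genes of like transcript length. In both comparisons with WT the H2B points lie lowest. The H2A point at 4.43 is H2ac24, which was at or near 0 in SclKO and WT and has no usable lower bound.

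**Figure D3:**
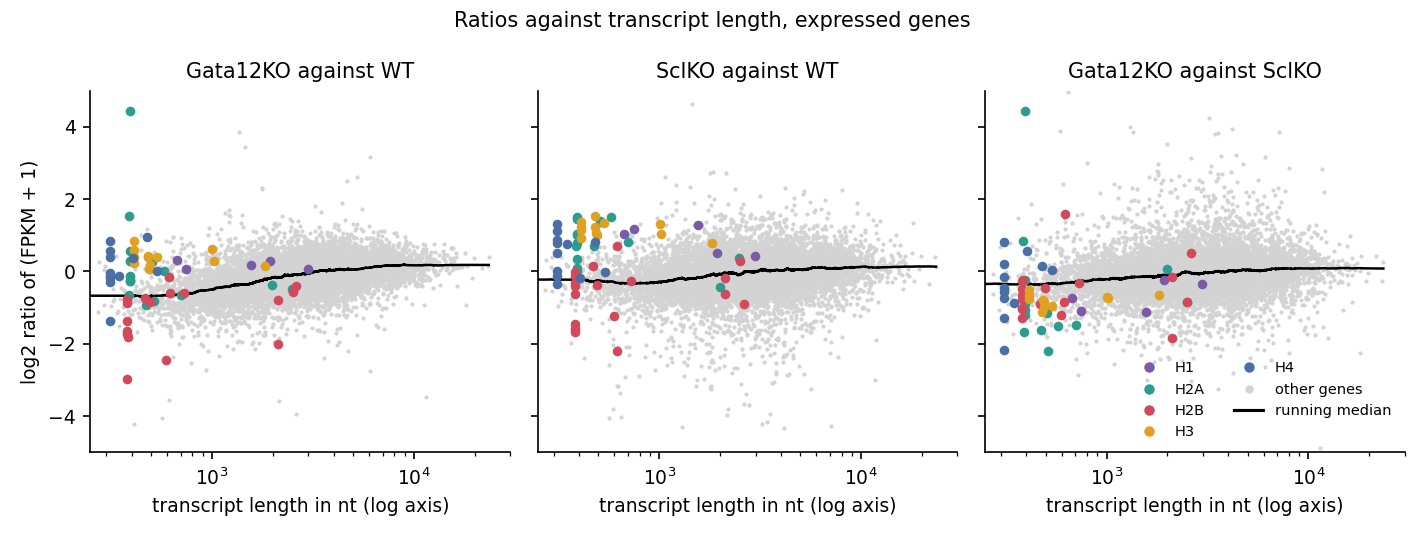
log2 ratio of (FPKM + 1) against transcript length in nt (log axis) for expressed genes of 250 nt or longer, with histone genes coloured by type. The black line is the running median of other genes, and genes beyond 5 on the log2 scale are not shown. Among the shortest, the 8 H2B genes of 381 to 384 nt have a median of -1.50 in Gata12KO against WT and -0.51 in SclKO against WT, and the 9 expressed H2A genes of 387 to 393 nt 0.29 and 0.78.

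H1, the linker histone that binds DNA between nucleosomes, was higher in SclKO for every expressed gene. The 5 expressed H1 genes summed, with H1f6, to 168 FPKM in the library labelled Gata12KO, 304 in SclKO and 146 in WT. The type's log2 ratio was 0.21 (0.16 to 0.25) in Gata12KO against WT and 1.06 (1.01 to 1.10) in SclKO against WT. H1f2 (Hist1h1c, mm9 chr13:23830676-23832236, forward strand) held more than the other H1 genes together, with 98.0 FPKM in the library labelled Gata12KO, 212 in SclKO and 86.7 in WT. It was called higher in SclKO than in WT (2.45-fold) on 8176 and 3769 reads, and lower in Gata12KO than in SclKO. H1f4 had 51.1 FPKM in the library labelled Gata12KO, 59.8 in SclKO and 42.0 in WT, and H1f3 had 9.61 in Gata12KO, 12.6 in SclKO and 9.15 in WT. SclKO was highest for both, but neither reached 2-fold. The smaller H1f5 (6.10 FPKM in Gata12KO, 10.8 in SclKO and 4.75 in WT) and H1f1 (3.26 in Gata12KO, 8.13 in SclKO and 3.04 in WT) were called higher in SclKO than in WT. Both had whole implied read numbers (within 0.02) in all 3 libraries, as reads that are not divided between copies give. The testis gene H1f6 was at 0.0267 to 0.0496 FPKM in each library.

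H2A pairs with H2B in the nucleosome, yet its RNA did not follow that of H2B. The 18 H2A genes summed to 572 FPKM in the library labelled Gata12KO, 1426 in SclKO and 589 in WT. The type's log2 ratio was 1.28 (1.19 to 1.36) in SclKO against WT and -0.04 (-0.14 to 0.05) in Gata12KO against WT, an interval that includes 0. Both intervals take in bounds of H2ac18 and H2ac24 that no read number explains, so they are not counting error alone. H2ac23 (Hist1h2ao, mm9 chr13:21902236-21902749, forward strand) had 116 FPKM in the library labelled Gata12KO, 531 in SclKO and 207 in WT, summed over 2 positions. SclKO was highest, 2.57-fold above WT, and the library labelled Gata12KO was 4.57-fold below SclKO. H2ac18 (Hist2h2aa1) had 132 FPKM in the library labelled Gata12KO, 377 in SclKO and 131 in WT. Its deposited lower bound is 0 in each library, so it could not be called, although its log2 ratio in SclKO against WT was 1.52. Of the 50-nt stretches of H2ac23, 93.5% also occur in other genes' transcripts, and of those of H2ac18 89.4%. H2ac15 (Hist1h2ak) had 71.3 FPKM in Gata12KO, 133.7 in SclKO and 47.9 in WT and was called higher in SclKO than in WT, as were H2ac22, H2ac4 and H2ac20. H2ac12 (Hist1h2ah) had 87.7 FPKM in the library labelled Gata12KO, 48.9 in SclKO and 29.4 in WT. It was the 1 histone gene called higher in Gata12KO than in WT (2.98-fold), and 95.6% of the 50-nt stretches in its measured part also occur in other genes' transcripts. H2aw (Hist3h2a), named after its values were seen, was the 1 H2A gene highest in WT, with 6.35 FPKM in Gata12KO, 6.06 in SclKO and 8.47 in WT.

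In Gata12KO against SclKO, 13 of 16 expressed H2A genes had negative ratios, as did 74.6% of the 323 other genes of 300 to 700 nt, and 7 were called lower. After H2ac23, those furthest below SclKO were H2ac20 (7.42 FPKM in Gata12KO, 25.8 in SclKO and 12.1 in WT) and H2ac11 (21.6 in Gata12KO, 68.7 in SclKO and 41.9 in WT). H2ac24 (Hist1h2ap) had 20.6 FPKM in the library labelled Gata12KO and was at or near 0 in SclKO and WT. One of its entries lies inside that of H2ac23 and 100% of its 50-nt stretches are shared, so how reads were divided between them is unsure, and no fold is given.

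H2B was lower than WT in both other libraries. In Gata12KO against WT, all 18 H2B genes had negative log2 ratios, from -2.98 to -0.15, against 87.9% of the 323 short genes. In SclKO against WT, 15 of 18 were negative, from -2.18 to 0.71, against 75.5% of short genes, and 7 of the 18 stood above genes of like length. The sum had a log2 ratio of -1.39 (-1.42 to -1.35) in Gata12KO against WT, a level 2.61-fold lower, and -0.50 (-0.54 to -0.47) in SclKO against WT. WT held the highest value for 15 of the 18 H2B genes, against 3 of the 45 expressed genes of other types. That share is not given for the short genes, most of which were negative in each comparison with WT. Genes with more and with less shared sequence both had negative medians. The 8 H2B genes with under 50% of their 50-nt stretches shared had -0.59 in Gata12KO against WT and -0.59 in SclKO against WT, and the 10 others -1.12 and -0.38. The sums differed more. Those 8 genes summed to 359 FPKM in Gata12KO, 637 in SclKO and 605 in WT. The 10 others summed to 325 FPKM in Gata12KO, 624 in SclKO and 1183 in WT, so the lower H2B sum of SclKO lay in genes with more shared sequence.

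H2bc11 (Hist1h2bj, mm9 chr13:22135099-22135479, forward strand) carried much of the difference. It had 72.6 FPKM (67.4 to 77.8) in the library labelled Gata12KO, 179.9 (168 to 192) in SclKO and 579 (560.0 to 599) in WT, on 780 reads in Gata12KO, 934 in SclKO and 3589 in WT. It was the most abundant of the 67 genes in WT, and its level was 7.98-fold lower in the library labelled Gata12KO and 3.22-fold lower in SclKO. In its measured part 74.1% of the 50-nt stretches are shared, so these values depend on how reads were divided. Without H2bc11 the other 17 H2B genes summed to 612 FPKM in the library labelled Gata12KO, 1081 in SclKO and 1209 in WT. These sums were 1.98-fold lower in Gata12KO than in WT but 1.12-fold lower in SclKO than in WT, so in SclKO the lower H2B sum rested mainly on this gene. H2bc3 (Hist1h2bb, mm9 chr13:23838603-23839070, forward strand) had 237 FPKM in the library labelled Gata12KO, 439 in SclKO and 397 in WT, and was not called. H2bc18 (Hist2h2bb) had 86.7 FPKM in the library labelled Gata12KO, 119.9 in SclKO and 155 in WT. It was lowest in the library labelled Gata12KO and highest in WT, with log2 ratios of -0.83 and -0.37 against WT, and it too was not called.

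Of the H2B genes with smaller totals, H2bc22 (Hist1h2bp) had 8.83 FPKM in the library labelled Gata12KO, 21.8 in SclKO and 52.9 in WT. H2bc14 (Hist1h2bm) had 16.9 FPKM in Gata12KO, 20.6 in SclKO and 58.3 in WT. H2bc1 (Hist1h2ba), a gene known from testis, had 2.99 FPKM in Gata12KO, 3.65 in SclKO and 12.97 in WT. All 3 were called lower than WT in both other libraries. H2bc23 (Hist1h2bq) had 23.7 FPKM in Gata12KO, 87.4 in SclKO and 98.7 in WT and was called lower in Gata12KO than in WT and than in SclKO, but 97.3% of its 50-nt stretches are shared. H2bu2 (Hist3h2ba) had 6.04 FPKM in the library labelled Gata12KO, 1.34 in SclKO and 9.65 in WT. It was called lower in SclKO than in WT and was the 1 histone gene called higher in Gata12KO than in SclKO. H2bc21, named after its values were seen, had the same order at a low level (0.535 FPKM in Gata12KO, 0.0731 in SclKO and 1.01 in WT). The reference table gives the symbol H4bc24 to Hist1h2br, which is an H2B gene by its older name. It had 20.3 FPKM in Gata12KO, 22.9 in SclKO and 35.8 in WT and was counted as H2B. In the library labelled Gata12KO its entry is listed under H2bc23 and was matched by position.

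**Figure D4:**
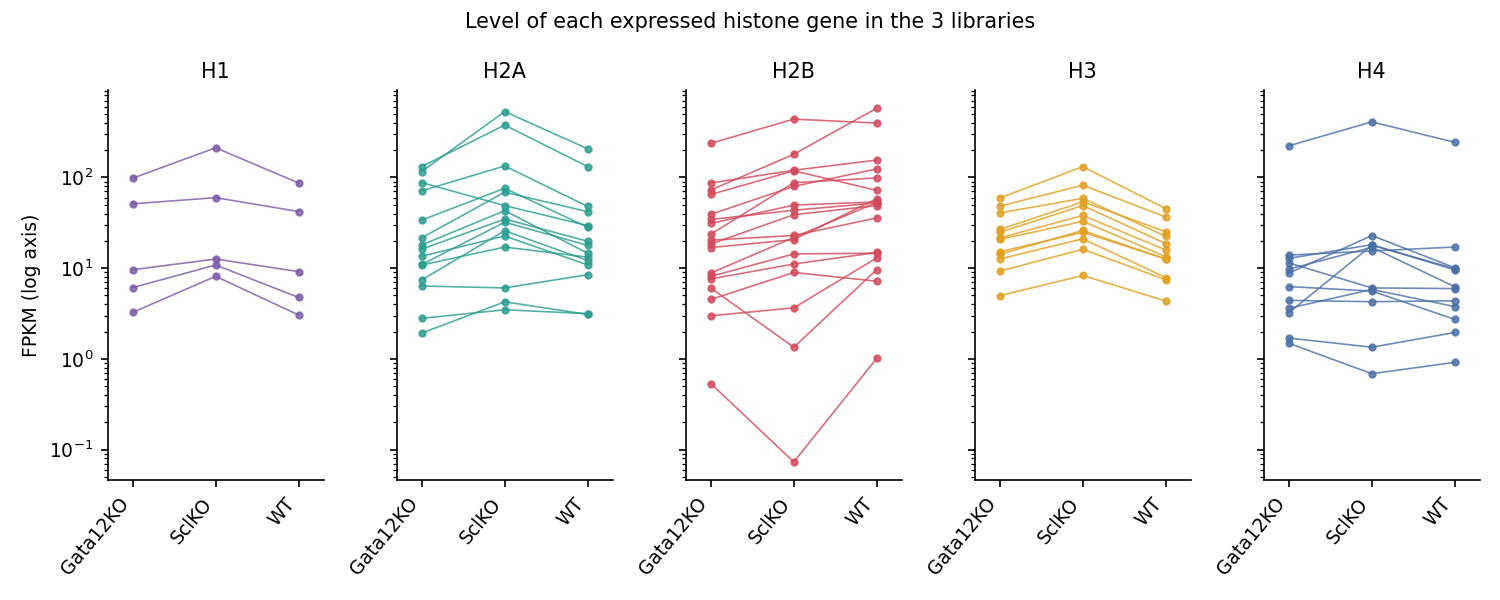
FPKM (log axis) of each expressed histone gene in the libraries labelled Gata12KO, SclKO and WT, one panel per type and one line per gene. H2ac24, at or near 0 in 2 libraries, is left out. H1 and H3 genes peak in SclKO, and most H2B genes are highest in WT.

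Many H2A and H2B genes are of almost the same length, which allows a comparison apart from the length trend. The 10 H2A genes of 387 to 393 nt summed to 249 FPKM in the library labelled Gata12KO, 330 in SclKO and 151 in WT, with H2ac12 and H2ac24 giving 87.7 and 20.6 of the 249. The 8 H2B genes of 381 to 384 nt summed to 197 FPKM in the library labelled Gata12KO, 398 in SclKO and 907 in WT. Thus the H2B sum was 4.60-fold lower in Gata12KO than in WT while the H2A sum was 1.64-fold higher. In SclKO against WT the H2B sum was 2.28-fold lower and the H2A sum 2.18-fold higher. H2bc11 gave 72.6 FPKM of the H2B sum in Gata12KO, 179.9 in SclKO and 579 in WT, and without it the H2B sum was 2.63-fold lower in Gata12KO than in WT and 1.50-fold lower in SclKO than in WT. All 8 of these H2B genes were negative in both comparisons with WT. Of the 323 short genes, 87.9% were negative in Gata12KO against WT and 75.5% in SclKO against WT. Set against genes of like length, all 8 stood below in Gata12KO against WT. In SclKO against WT, H2bc7, H2bc9 and H2bc12 stood above, by 0.24, 0.33 and 0.02 on the log2 scale. There H2bc1, H2bc11, H2bc13, H2bc14 and H2bc15 stood below.

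H2A and H2B genes often stand side by side and are read in opposite directions from 1 shared stretch of DNA. There were 10 such neighbouring pairs with both genes expressed, the starts of their measured entries 167 to 334 bases apart in mm9. Where an entry holds only a coding sequence, its start is not the transcription start site. In SclKO against WT the H2B ratio lay below that of its H2A neighbour in 10 of 10 pairs, by a median of -1.66 on the log2 scale (-2.74 to -0.10), and in 9 the H2A gene was positive while the H2B gene was negative. In Gata12KO against WT it lay below in 8 of 10, by a median of -0.84 (-2.91 to 0.51). In Gata12KO against SclKO it lay below in 3 of 10, with a median of 0.36. Beside H2bc11, H2ac11 (280 bases between the starts of the measured entries) had 21.6 FPKM in the library labelled Gata12KO, 68.7 in SclKO and 41.9 in WT. Beside H2ac12, the H2A gene called higher in Gata12KO, H2bc12 had 18.4 FPKM in the library labelled Gata12KO, 38.8 in SclKO and 48.9 in WT and was called lower than WT. The pair of H2ac22 and H2bc22 had the widest gap in SclKO against WT, at 1.49 and -1.24.

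**Figure D5:**
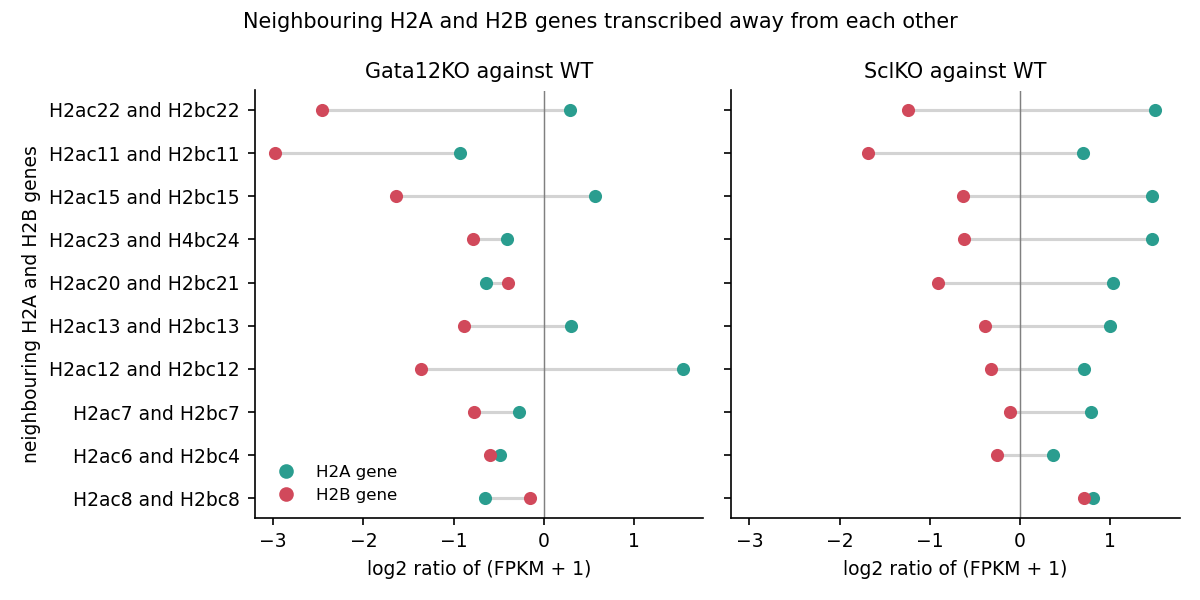
log2 ratio of (FPKM + 1) (x axis) of the H2A gene and the H2B gene of 10 neighbouring pairs (rows) in Gata12KO against WT and SclKO against WT. Each grey line joins the genes of 1 pair. In SclKO against WT the H2B point lies left of the H2A point in all 10 pairs.

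Promoters of 3 H2B genes are shown, since H2bc3 is the H2B gene of highest mean level, H2bc11 has the lowest ratio in Gata12KO against WT, and H2bc12 faces H2ac12. H2bc11 and H2bc12 belong to the neighbouring pairs and H2bc3 does not. Each runs from 250 bases before the RefSeq start to 50 after it in GRCm38.p6, 5′ to 3′ on the forward strand of the build, and none is given in mm9. They lie at chr13:23746484-23746783, chr13:22042948-22043247 and chr13:22035571-22035870. Capitals mark ATTTGCAT (the octamer bound by Oct1), CCAAT (bound by NF-Y) and TATAAA (the TATA box), or their reverse complements, none of which overlap here.
H2bc3: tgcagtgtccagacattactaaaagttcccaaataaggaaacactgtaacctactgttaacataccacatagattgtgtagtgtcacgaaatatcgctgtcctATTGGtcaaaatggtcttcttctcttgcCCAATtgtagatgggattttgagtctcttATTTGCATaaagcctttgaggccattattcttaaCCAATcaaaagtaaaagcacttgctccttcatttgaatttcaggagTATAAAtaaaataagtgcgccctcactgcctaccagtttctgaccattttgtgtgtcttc
H2bc11: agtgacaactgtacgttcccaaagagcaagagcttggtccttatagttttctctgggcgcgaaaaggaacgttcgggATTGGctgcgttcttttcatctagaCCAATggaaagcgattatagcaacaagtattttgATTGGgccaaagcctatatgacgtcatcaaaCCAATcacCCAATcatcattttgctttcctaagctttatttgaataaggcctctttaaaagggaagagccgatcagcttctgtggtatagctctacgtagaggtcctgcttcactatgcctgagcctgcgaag
H2bc12: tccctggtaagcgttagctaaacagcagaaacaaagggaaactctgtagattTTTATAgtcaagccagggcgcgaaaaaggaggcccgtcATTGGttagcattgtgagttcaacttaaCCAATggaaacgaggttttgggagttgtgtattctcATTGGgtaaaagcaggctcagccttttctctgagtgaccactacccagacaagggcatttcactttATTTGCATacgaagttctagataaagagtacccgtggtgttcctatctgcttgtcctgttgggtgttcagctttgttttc
RefSeq promoters matched 62 of the members, with 63 windows. The octamer was found, on either strand, in 7 of 17 H2B and 7 of 18 H2A promoters and in none of the 28 others of H1, H3 and H4, against 1.74% of 32851 mouse promoters. CCAAT was found in all 51 promoters of H1, H2A, H2B and H3 and in 3 of 12 of H4, against 37.4% of all. TATAAA was in 35 of 63 histone promoters against 13.6%, and the H1 box AAACACA in 5 of 6 H1 promoters against 7.18%. The 7 H2B genes with the octamer had median log2 ratios of -0.83 in Gata12KO against WT and -0.33 in SclKO against WT, and the 9 expressed H2B genes whose promoter lacked it had -0.88 in Gata12KO against WT and -0.62 in SclKO against WT. H2bc11, H2bc15 and H2bc22 are among those without these exact letters. The summed FPKM of the H2B genes with the octamer had log2 ratios of -0.80 in Gata12KO against WT and -0.004 in SclKO against WT. For those without it the sums had -2.17 and -1.07, with H2bc11 giving 579 of their 984 FPKM in WT. A match only says that the letters are there.

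Every H3 gene was highest in SclKO and lowest in WT, as was every expressed H1 gene. The 12 H3 genes summed to 298 FPKM in the library labelled Gata12KO, 542 in SclKO and 222 in WT. All 12 had positive ratios in both comparisons with WT, from 0.08 to 0.83 in Gata12KO against WT and from 0.80 to 1.52 in SclKO against WT. Of the 12, 9 were called higher in SclKO than in WT and none in Gata12KO than in WT. H3c3 (Hist1h3c, mm9 chr13:23836911-23837390, reverse strand) had 59.4 FPKM in the library labelled Gata12KO, 131 in SclKO and 45.2 in WT. It was 2.91-fold higher in SclKO than in WT on 1046 and 420 reads. H3c6 (Hist1h3e) had 48.2 FPKM in Gata12KO, 82.1 in SclKO and 36.6 in WT. H3c2 (Hist1h3b) had 40.6 in Gata12KO, 58.8 in SclKO and 22.4 in WT, and both were called higher in SclKO than in WT. These 12 genes encode nearly the same protein, so how reads were divided among them is uncertain, while their sum is less affected.

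H4 was dominated by 1 gene. The 13 H4 genes summed to 301 FPKM in the library labelled Gata12KO, 525 in SclKO and 317 in WT, of which H4c14 made up 74.2% in Gata12KO, 78.0% in SclKO and 76.9% in WT. H4c14 (Hist2h4, mm9 chr3:96066893-96067240, reverse strand) had 223 FPKM in the library labelled Gata12KO, 409 in SclKO and 244 in WT. It was 1.68-fold higher in SclKO than in WT, short of the 2-fold limit. H4c4 had 13.9 FPKM in Gata12KO, 15.5 in SclKO and 17.1 in WT, with bounds that overlap among the 3 libraries. H4c1 had 8.81 FPKM in Gata12KO, 22.9 in SclKO and 10.1 in WT and was the 1 H4 gene called higher in SclKO than in WT. H4c12 had 3.23 FPKM in Gata12KO, 17.9 in SclKO and 9.88 in WT and was called lower in Gata12KO than in both others, on 23.5 reads in Gata12KO, 59.6 in SclKO and 40.2 in WT. The type's log2 ratio was 0.73 (0.63 to 0.83) in SclKO against WT and -0.07 (-0.17 to 0.02) in Gata12KO against WT.

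Genes that make, process and carry histones showed no shift of this size in their medians. In Gata12KO against WT, 0.767% of all expressed genes were called higher and 3.75% lower. In SclKO against WT these shares were 2.12% and 4.24%, and in Gata12KO against SclKO 3.38% and 3.75%. For lists of 20 to 41 genes, few or no calls is near those shares. Of 25 expressed genes of histone mRNA transcription and processing, none was called in any comparison, with medians of 0.05 in Gata12KO against WT, 0.06 in SclKO against WT and 0.01 in Gata12KO against SclKO. Slbp, named here outside the rule for named genes, had 49.9 FPKM in the library labelled Gata12KO, 50.2 in SclKO and 48.2 in WT. In FPKM of Gata12KO, SclKO and WT, the largest ratios of that list were those of Lsm1 (6.48, 9.31 and 12.7 FPKM), Lsm4 (43.8, 75.7 and 73.5), Upf1 (16.8, 24.8 and 14.2) and Cstf2 (19.8, 13.5 and 22.1). Upf1, a helicase that takes part in histone mRNA decay, was highest in SclKO. Of 41 genes of cyclin E and A and DNA replication, none was called, with medians of 0.02 in Gata12KO against WT, 0.11 in SclKO against WT and -0.13 in Gata12KO against SclKO. In FPKM of Gata12KO, SclKO and WT, their largest ratios were those of Orc6 (40.2, 75.9 and 64.3 FPKM), Tk1 (10.3, 19.0 and 10.4), Gins2 (60.0, 100.8 and 95.6) and Gins4 (32.7, 50.8 and 54.1). Of these, Tk1, the thymidine kinase of S phase, was highest in SclKO and alike in the other libraries. Of 20 histone chaperones, 1 was called, Supt16 of the FACT complex, with 19.9 FPKM in the library labelled Gata12KO, 41.4 in SclKO and 26.3 in WT. The list's medians were 0.03 in Gata12KO against WT, 0.16 in SclKO against WT and -0.18 in Gata12KO against SclKO. In FPKM of Gata12KO, SclKO and WT, Chaf1b (13.01, 19.2 and 12.5 FPKM), Rbbp7 (80.3, 109 and 75.8) and Daxx (9.32, 9.62 and 6.38) followed.

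Replacement histones, which are also made outside S phase, mostly from polyadenylated mRNAs, were higher in SclKO than in WT for 4 of 11 genes and lower for 7. None of them was called there, against 2.12% of all expressed genes called higher and 4.24% lower. Their 11 genes had medians of -0.09 in Gata12KO against WT, -0.34 in SclKO against WT and 0.01 in Gata12KO against SclKO. In FPKM of Gata12KO, SclKO and WT, H3f3b had 605, 448 and 749, H3f3a 436, 305 and 475, and H2az2 106, 90.8 and 151. SclKO was lowest for these 3. H2az1, with 247, 267 and 338 FPKM, was lowest in Gata12KO, and H1f10, with 42.3, 54.8 and 35.1 FPKM, was the replacement gene furthest above WT in SclKO (log2 ratio of 0.63). H2az1 and H1f10 were named after their values were seen. H2aj (13.5 FPKM in Gata12KO, 20.6 in SclKO and 31.2 in WT) was the 1 replacement gene called, lower in Gata12KO than in WT. In that comparison 3.75% of all expressed genes were called lower. The 3 other short RNAs without poly(A) tails that were found also had positive ratios in SclKO against WT. In FPKM of Gata12KO, SclKO and WT, Rmrp had 476, 498 and 399, Rpph1 151, 280.0 and 211, and Terc 1.90, 4.44 and 1.49. Terc was called higher in SclKO than in WT, at a low level and with bounds that only just separate (2.66 to 6.21 in SclKO and 0.55 to 2.44 in WT). How much of the histone ratios goes with the recovery of RNAs without poly(A) tails was not tested.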

How the data were processed

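Each library was sequenced as 50-nt reads and, per the submitters' processing notes, handled with TopHat2 2.0.4, Cufflinks 2.0.1 and Cuffdiff. The same notes name the builds mm9 and hg19, and the coordinates are those of mm9. Each deposited file lists 30123 transcript entries with FPKM, and bounds, which the values show to lie 2 Poisson SD away. The deposited FPKM are used unscaled. Of 29610 RefSeq accessions, 29030 were named from the RefSeq table and 173 from that of GENCODE vM21. In all, 133 entries of non-members named differently between files were left out, while such entries of members were kept. FPKM was summed per symbol, with 7 members listed at several positions.

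Reads behind an entry were taken from its bounds. With these, FPKM fitted the reads, the transcript length less a term of 168 nt (Gata12KO), 199 nt (SclKO) or 186 nt (WT), and the depth to within 1% for 94.3% to 94.5% of entries. The effective length of a 393-nt histone transcript is then 225, 194 and 207 nt. Of the members, 32 have models of at most 420 nt whose lengths are multiples of 3, as coding sequences without UTRs have. Cufflinks divides reads between similar transcripts, and the median histone gene shared 57.4% of its 50-nt stretches with other genes, counted in the longest GENCODE transcript or, where the entry measured is a coding sequence, in that part of it, which was not found for H4c14 and H4c17. Member entries with bounds that no read number explains number 4, and their genes cannot be called.

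Ratios are log2 of (FPKM + 1). Those of summed FPKM have no pseudocount. Named members are, in each type, the 3 of highest mean FPKM, and in each comparison up to 5 called higher and 5 lower with the largest ratios. For each list up to 4 genes with the largest ratios are named. Members, lists and rules were chosen with earlier results of these data known. The call rule and depth fit were tested on simulated data. Python 3.11.15, numpy 2.4.6 and pandas 2.3.3 were used.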

Additional observations from a re-analysis of the deposited data

How the results depend on the processing

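No paired analysis was possible because each group has 1 library. The higher non-H2B and lower H2B ratios of SclKO against WT kept their sign for every type under the 8 alternatives that can change a sum, as did the lower H2B sum of Gata12KO against WT (-1.64 to -0.69). Under all 12 alternatives, the H2B median stayed below that of the other types by -1.41 to -1.01 in SclKO against WT and by -1.15 to -0.85 in Gata12KO against WT. Both of these comparisons use the same WT library. In Gata12KO against SclKO the H2B median differed from that of the other types by only -0.01 to 0.12. The H2A and H4 sums of Gata12KO against WT changed sign between settings (-0.04 to 0.65 and -0.09 to 0.62).

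The log2 ratio of all members in Gata12KO against WT, -0.60 as reported, turned to 0.10 after rescaling to the library sum (TPM) and 0.033 with the length trend removed. It was -0.49 after rescaling by median ratios, -0.29 after rescaling to transcripts of 300 nt or longer, -0.50 per kb of full length and -0.69 without the top member of each type, a setting chosen after seeing the data. In SclKO against WT, 0.41 became 0.45 (median ratios), 0.55 (300 nt or longer), 0.28 (TPM), 0.32 (highest entry of a symbol only), 0.65 (length trend removed), 0.23 (without members at several positions) and 0.16 (without top members). In Gata12KO against SclKO, -1.004 became -0.94 (median ratios), -0.84 (300 nt or longer), -0.18 (TPM), -0.89 (full length), -0.94 (highest entry), -0.68 (length trend removed), -0.83 (several positions) and -0.86 (without top members), and the H4 sum there turned to 0.016 under TPM. TPM moved the median of all expressed genes to 0.51, -0.14 and 0.65 in these 3 comparisons, and rescaling to 300 nt or longer to 0.18, 0.09 and 0.09. The median against genes of like length fell to 0.70 with a pseudocount of 5 and to 0.52 with no minimum in SclKO against WT, and to 0.11 with no minimum in Gata12KO against WT. The cause was not tested.

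Members called higher in Gata12KO against WT numbered 2 with a pseudocount of 0.1 or median ratios, 5 (300 nt or longer), 13 (TPM) and 11 (length trend removed), and members called lower 5 under TPM and 5 with the length trend removed. In Gata12KO against SclKO, members called higher numbered 2 (pseudocount of 0.1, full length), 0 (pseudocount of 5), 4 (300 nt or longer, TPM) and 3 (length trend removed), and members called lower 11 (300 nt or longer), 3 (TPM), 9 (full length) and 6 (length trend removed). Of the 18 members called higher in SclKO against WT, 12 kept the call in every alternative that held them, as did 4 of 5 called lower. In Gata12KO against WT 5 of 8 lower calls did, and in Gata12KO against SclKO 3 of 17. No called member changed sign. Depth limits the smaller H4 genes most, as H4c12 rests on 23.5 reads in Gata12KO, 59.6 in SclKO and 40.2 in WT.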
